A study of Mus musculus with 32 samples.

Results

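Before any streptavidin pulldown, a portion of each neuronal lysate was set aside as input, so the input RNA shows the whole culture in which a construct was expressed. All 16 input libraries, of 32 libraries in the series, were compared here by construct, 8 from cultures with TurboID-PSD95 and 8 from cultures with Pan-TurboID. Each TurboID-PSD95 library was set beside the Pan-TurboID library of the same state and the same replicate number in the titles, which gave 8 pairs, and the construct difference was averaged over the resting and the depolarized state. The difference is written throughout as TurboID-PSD95 minus Pan-TurboID on the log2 scale.

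The cultures were primary cortical neurons from embryonic CD-1 mice. They were transduced with lentivirus that expressed the construct from a doxycycline-inducible promoter, which has no cell type restriction of its own. All cultures, of both constructs and both states, received cycloheximide before biotin and were crosslinked with ultraviolet light. Resting cultures received no KCl, and depolarized cultures were first silenced by tetrodotoxin with DL-AP5, then exposed to KCl (55 mM, 1 h) and rested before harvest. There were 4 biological replicates in each of the 4 groups, resting Pan, resting PSD95, depolarized Pan and depolarized PSD95.

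TurboID is a biotin ligase that tags proteins lying close to it. PSD95 is a scaffold protein of the postsynaptic density, the protein layer beneath excitatory synapses, and its fusion to TurboID directs labelling there. Pan-TurboID carries no localization sequence and labels proteins across the neuron. Dendritic RNA is then read as RNA that the first construct recovers more of than the second, a ratio that assumes similar RNA in both cultures before the pulldown. The inputs address that assumption directly.

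The transcripts are UCSC models of the mouse genome (mm10) that the files list by identifier, and none of the 51884 identifiers could be paired with a gene symbol here. Results are therefore given per transcript, no sequence is shown, and the defining markers of neurons and glia and the RNA of the constructs themselves were not analysed here. By the study's methods, the TurboID-PSD95 construct holds the coding sequence and untranslated regions of PSD95. Reads from its RNA could not be told apart here from those of the neurons' own PSD95 transcripts. Whether such reads took part in the difference of any transcript named below was not tested. Reads that fit several models had been divided among them by the authors' quantification. For 8856 models every library held whole counts (within 0.001), so that no fraction of a read was assigned to them, and these are called transcripts with whole counts below. The others are called transcripts that share reads.

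Input libraries held 4439271 to 13016945 counts. From 2.36% to 84.8% of them fell on 1 transcript, uc009sgd.1 (3881 nt). With uc012eno.1 (334 nt) and uc033jng.1 (123 nt), the other two of the 3 most abundant transcripts, it left between 612945 and 11834364 counts for the rest of the transcriptome. Depolarized Pan replicate 4 and depolarized PSD95 replicate 3 stood apart, with 8.91% and 13.5% of their counts outside these 3 transcripts. The limma counts, the named transcripts, the library measures and the correlations with the pulldowns were computed with and without them. The descriptions of 4 input libraries, all of title replicate 2, name the opposite state from their titles.

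Few transcripts of the whole-culture RNA passed the main limma test for a construct difference, and the number depended on the tool. Over both states, 5 of 27887 transcripts tested (0.0179%) passed an adjusted p of 0.05 in limma, 3 higher and 2 lower with PSD95. At an unadjusted p under 0.05 there were 2026 (7.27%). By edgeR's quasi-likelihood test 0 passed, with 879 at an unadjusted p under 0.05. DESeq2 called 499 of 27887 (325 higher), and limma without a filter on low counts called 84 of 44013 (17 higher). Leaving out replicate 1, 2, 3 or 4 gave 1, 1, 3 and 4 calls, and without depolarized Pan replicate 4 there were 2. The median difference over all transcripts tested was 0.03 on the log2 scale. Bulk RNA cannot tell apart a change in the number of cells of a type from a change of RNA in each cell.

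**Figure D1:**
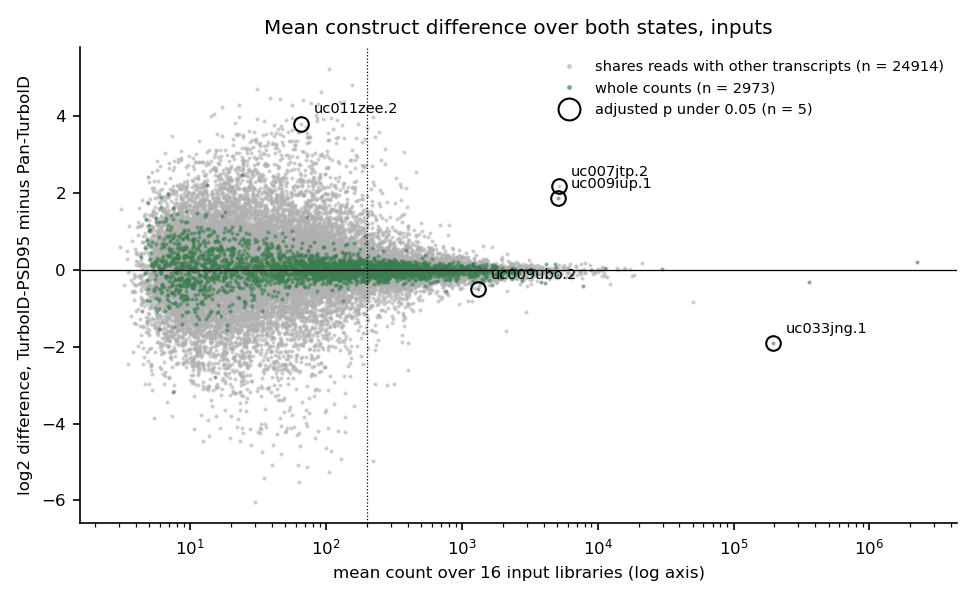
Mean construct difference in the inputs (vertical axis, log2 scale) against the mean count over 16 libraries (horizontal log axis), with 24914 transcripts that share reads in grey, 2973 with whole counts in green, the 5 called transcripts circled, and a dotted line at a mean count of 200. The cloud narrows toward 0 as counts rise, and transcripts with whole counts lie in a narrower band than those that share reads.

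Of the 5, uc007jtp.2 (3326 nt, shares reads) was higher with PSD95 in every pair at high counts. It met the threshold but fell outside the 2 with the smallest p in its direction, so it is named after its values were seen. In resting cultures its level, in counts per 1000000 (CPM), was 1092, 1050, 1368 and 719 CPM in PSD95 replicates 1 to 4 and 165, 95.9, 156 and 194 CPM in the Pan replicates. Every resting PSD95 library was above every resting Pan library. In depolarized cultures it was 617, 840, 1468 and 232 CPM with PSD95 and 283, 142, 211 and 196 CPM with Pan. The depolarized groups overlapped, because PSD95 replicate 4 lay below Pan replicate 1, although PSD95 was the higher of each pair. The level was higher with PSD95 in 8 of 8 pairs.

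The mean difference of uc007jtp.2 was 2.17 ± 0.29 (SE), a 4.50-fold higher level, with a limma adjusted p of 0.0496. Its fitted difference was 2.88 ± 0.36 at rest and 1.46 ± 0.39 after depolarization, and the change between the states, -1.41 ± 0.47, did not pass (limma adjusted p = 0.382). The mean difference ran from 1.79 to 2.41 over 16 alternative fits, and the adjusted p from 3.79e-11 to 0.999. Without replicate 4 the call held at 0.0327, and without replicate 1, 2 or 3 it was lost, at 0.917, 0.415 and 0.208. The pulldowns of the same lysates showed the same direction, with a difference of 3.16 ± 0.37 (limma adjusted p = 0.0262) and a higher PSD95 level in 8 of 8 pairs. In the test of pulldown against input difference, the extra difference in the pulldowns was 0.64 ± 1.02 (limma adjusted p = 0.914). That model held no term for the lysate that both fractions came from, so it did not use their pairing. The 8 pair differences ran from 0.23 to 3.45 in the inputs (median 2.64). They ran from 2.18 to 4.41 in the pulldowns (median 3.59).

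A second transcript higher with PSD95, uc011zee.2 (6196 nt), was listed at 0 counts in all 4 resting Pan libraries. The resting PSD95 libraries held 5.71, 9.24, 9.40 and 3.72 CPM. These come from 47.0 to 82.7 estimated counts per library, and the transcript shares reads, so the split among models sets part of the value. Set against 3 counts over the resting Pan group, the pooled resting PSD95 level was 99.4-fold higher. Because an estimate of 0 can follow from the split of shared reads, this fold is not a lower limit. After depolarization its level was 15.0, 17.7, 6.51 and 6.61 CPM with PSD95 and 6.63, 6.99, 2.21 and 5.37 CPM with Pan, and these groups overlapped. The level was higher with PSD95 in 8 of 8 pairs. The mean difference was 3.80 ± 0.45 (SE) with a limma adjusted p of 0.0291. It passed in 7 of 16 alternatives, with an adjusted p from 3.79e-11 to 0.891, and leaving out any replicate lost the call. In the pulldowns PSD95 was higher in 2 of 4 resting and 4 of 4 depolarized pairs. The difference there of 2.94 ± 1.19 did not pass (limma adjusted p = 0.469). Mean pulldown levels were 3.75 CPM with PSD95 and 9.43 CPM with Pan at rest, and 16.5 and 3.82 CPM after depolarization.

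The third, uc009iup.1 (630 nt, whole counts), was present in cultures of replicates 1 and 2 and nearly absent from the others. In resting replicates 1 and 2 its level was 541 and 989 CPM with PSD95 and 241 and 313 CPM with Pan. In depolarized replicates 1 and 2 it was 1286 and 1896 CPM with PSD95 and 186 and 504 CPM with Pan. In replicates 3 and 4 it held between 0 and 13 counts in any input library. PSD95 was higher in 4 of 8 pairs and lower in 1, and the remaining pairs held no counts. The mean difference was 1.86 ± 0.12 (SE), with a limma adjusted p of 4.42e-05. It passed in 14 of 17 alternatives, with an adjusted p from 1.58e-11 to 1. The difference was 1.01 with edgeR (adjusted p = 1) and 0.37 with DESeq2 (adjusted p = 0.992). The call rests on these 2 replicates, and the fit without the replicate block gave -0.50, the opposite sign (limma adjusted p = 0.999). No cause of the difference between replicates was tested.

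**Figure D2:**
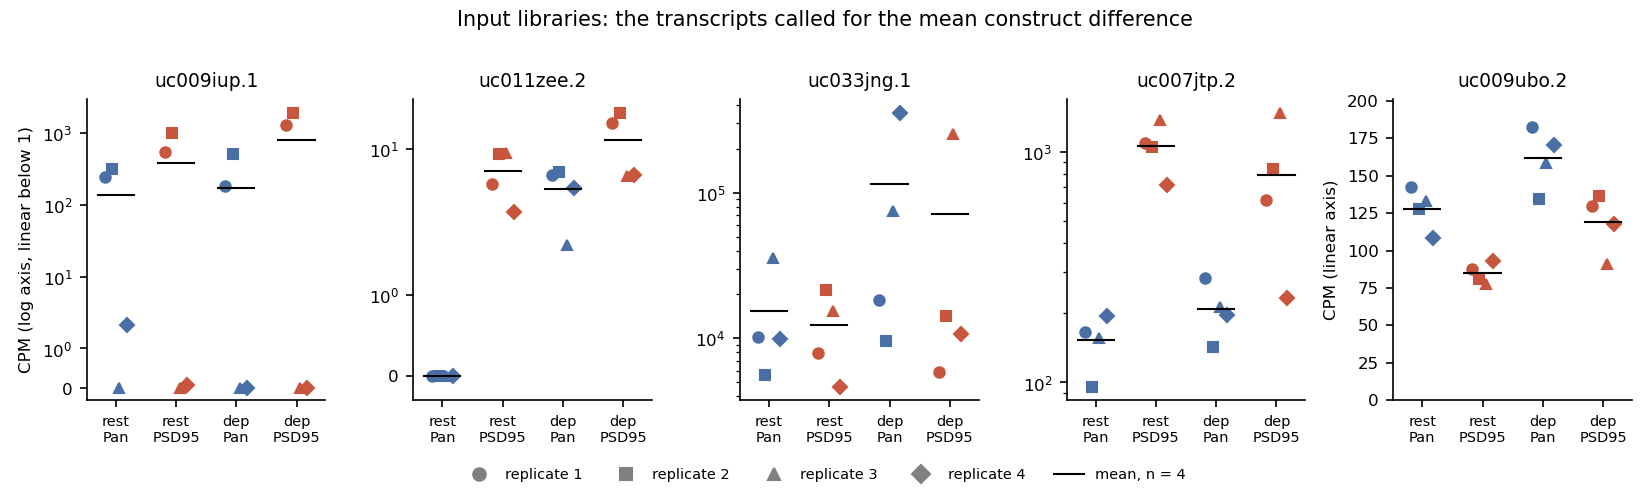
Level of the 5 called transcripts in each input library, in CPM (log axes, linear below 1, and a linear axis for uc009ubo.2), by state and construct, with replicate numbers as symbols, Pan in blue, PSD95 in red and bars at the mean of 4. For uc007jtp.2 the resting PSD95 libraries sit between 719 and 1368 CPM and the resting Pan libraries between 95.9 and 194 CPM, while uc009iup.1 is near 0 in replicates 3 and 4 of every group.

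Of the transcripts lower with PSD95, uc009ubo.2 (1825 nt, whole counts) showed a small and steady difference. In resting cultures its level was 87.5, 81.1, 77.4 and 93.3 CPM with PSD95 and 142, 128, 133 and 108 CPM with Pan, and the groups did not overlap. In depolarized cultures it was 130, 136, 90.8 and 118 CPM with PSD95 and 183, 135, 159 and 170 CPM with Pan, where only PSD95 replicate 2 exceeded a Pan library. The level was lower with PSD95 in 7 of 8 pairs. The mean difference was -0.50 ± 0.07 (SE), a 1.41-fold lower level, with a limma adjusted p of 0.0496. Over 17 alternatives the difference stayed between -0.55 and -0.42, and it passed in 5 of them, with an adjusted p from 4.67e-06 to 1. Leaving out any replicate lost the call. The pulldowns of these lysates also had a lower PSD95 level, in 8 of 8 pairs, with a difference of -0.76 ± 0.10 (limma adjusted p = 0.0331).

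The other, uc033jng.1 (123 nt, whole counts), is among the 3 most abundant transcripts, and its difference changed sign with the libraries used. In resting cultures its level was 7976, 21356, 15495 and 4654 CPM with PSD95 and 10259, 5601, 35722 and 9854 CPM with Pan. In depolarized cultures it was 5892, 14264, 254127 and 10755 CPM with PSD95 and 18251, 9526, 75487 and 353071 CPM with Pan. Its highest levels were in the 2 libraries that stood apart, 1 of each construct, and the groups overlapped in both states. The mean difference was -1.91 ± 0.24 (SE) with a limma adjusted p of 0.0365, although PSD95 was lower in only 5 of 8 pairs. Without depolarized Pan replicate 4 it was 0.18, without all of replicate 4 it was 0.55, and without both libraries that stood apart it was -0.75. It passed in 0 of 17 alternatives, with an adjusted p from 0.0842 to 1.

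The precision of the inputs depended on abundance and on whether reads were shared. The 95% interval of the mean construct difference in the weighted limma fit lay within 2-fold in either direction for 35.0% of 27887 transcripts tested. It did so for 86.6% of 6288 transcripts with a mean input count of at least 200, and for 98.0% of 1105 with at least 1000. Among the 6288, it did so for 99.6% of 1020 with whole counts and for 84.1% of 5268 that share reads. The median half-width of the interval was 0.23 and 0.29 in these sets. For a transcript of low abundance, the inputs therefore left room for a difference of 2-fold or more that was not detectable at this depth.

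The construct difference was then compared in size with the difference between resting and depolarized cultures, measured in the same libraries and with pairs of the same replicate number. In transcripts with whole counts, the SD of the log2 ratio between the libraries of a construct pair ran from 0.252 to 0.460 over the 8 pairs. For pairs that differed in state it ran from 0.429 to 0.599. Averaged by replicate, the construct SD was 0.300, 0.450, 0.354 and 0.359 in replicates 1 to 4, and the state SD 0.432, 0.549, 0.490 and 0.529. The construct SD was the lower one in 4 of 4 replicates, and construct minus state SD was -0.134 ± 0.029 (SD, n = 4). The exact sign-flip permutation test gave p = 0.13 (two-sided), the smallest that 4 replicates allow.

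Both kinds of difference were wider where reads were shared. In transcripts that share reads, whose median count of 421 was close to the 416 of those with whole counts, construct pairs had an SD of 0.851 to 2.04 and state pairs 0.746 to 2.25. Replicate 2 was the highest, with 2.04 and 2.01 for its construct pairs. Construct minus state SD was -0.029 ± 0.029 (SD, n = 4) in this set, below 0 in 3 of 4 replicates (exact permutation test, two-sided, p = 0.25). Over all 6288 transcripts together, construct minus state SD was -0.035 ± 0.024 (SD, n = 4) and below 0 in 4 of 4 replicates, and the exact permutation test gave p = 0.13 (two-sided).

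**Figure D3:**
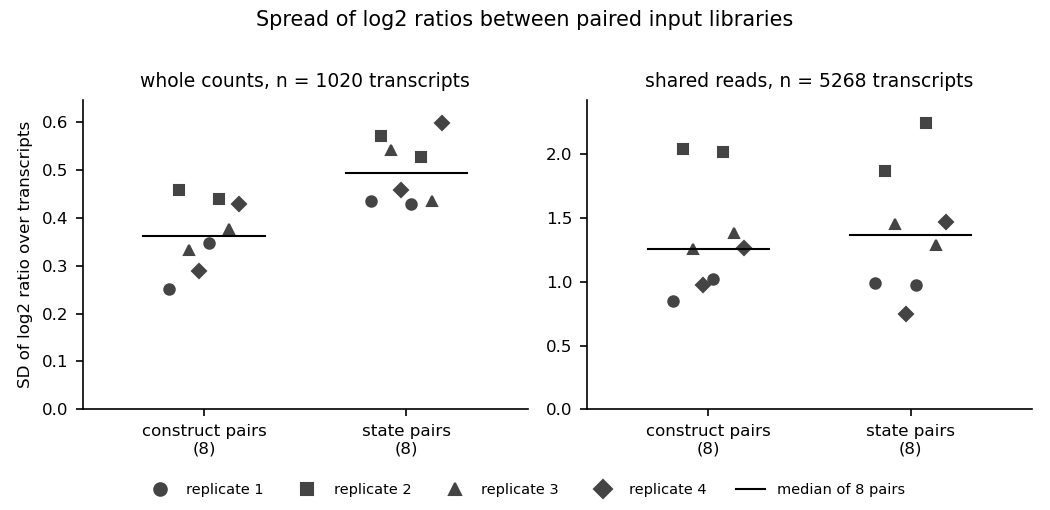
SD over transcripts of the log2 ratio between paired input libraries (vertical axis) for the 8 pairs that differ in construct and the 8 that differ in state, with replicates as symbols and a bar at the median, for 1020 transcripts with whole counts (left) and 5268 that share reads (right, with its own axis). On the left the construct pairs lie between 0.252 and 0.460 and the state pairs between 0.429 and 0.599, and on the right both kinds overlap.

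The differences were also averaged over the 8 pairs with equal weight, and each set was centred on its median. Among the 1020 transcripts with whole counts, 0 had such a construct average past 2-fold and 20 had a state average past 2-fold. The limma fit gives uc009iup.1 and uc033jng.1 larger differences (1.86 and -1.91) than their equal-weight averages of 0.21 and -0.62. Without quality weights limma gave 1.82 and -1.54. The average of uc009iup.1 includes the pairs of replicates 3 and 4, in which it was nearly absent. The SD of the average was 0.129 for the construct and 0.343 for the state. Among the 5268 that share reads, 346 (6.57%) had a construct average and 482 (9.15%) a state average past 2-fold, with SDs of 0.499 and 0.616. A construct difference of the same sign in 8 of 8 pairs was found for 39 of 6288 transcripts (0.620%), 23 higher and 16 lower. Signs that are equally likely and independent between pairs would agree in 8 of 8 for a share of 0.0078, so this count is not above chance. A state difference of the same sign in 8 of 8 pairs was found for 664 (10.6%). In the limma fit over all transcripts, the state difference averaged over constructs called 1726 transcripts (6.19%), 961 higher and 765 lower after depolarization. Among transcripts with whole counts it called 403 of 2973 and the mean construct difference called 3.

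Construct differences were also compared between pairs. Across the 1020 transcripts with whole counts, Pearson's r between the log2 ratios of 2 construct pairs had a median of -0.02 (range -0.18 to 0.25) over the 6 combinations of resting pairs and 0.05 (-0.15 to 0.43) over the 6 of depolarized pairs. Between resting and depolarized pairs of different number the median was -0.10 (-0.30 to 0.30) over 12 combinations. The corresponding medians between state pairs were 0.32 (-0.05 to 0.62) with PSD95 and 0.52 (0.40 to 0.62) with Pan. These are correlations across transcripts, which are not independent replicates, and combinations of the same pair share its libraries. Over all 6288 abundant transcripts, construct accounted for a mean of 4.81% of the sum of squares over the 16 libraries, state for 15.3%, their interaction for 5.97% and replicate number for 31.0%. Over the 1020 with whole counts, these shares were 4.10%, 18.8%, 5.41% and 33.7%. With an equal share for each degree of freedom, the values would be 6.67% for each of the first 3 and 20% for replicate number.

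No property of whole libraries passed the test between the constructs. Over 9 measures, tested on the 8 pairs by an exact sign-flip permutation test (two-sided, smallest possible p = 0.0078), the adjusted p was 0.758 for every measure. The log2 total count differed by 0.08 ± 0.52 (SD, n = 8 pairs), with PSD95 higher in 4 of 8. The share of counts in the 3 most abundant transcripts differed by -5.34 ± 27.3 percentage points, with a difference of -65.7 points in replicate 4 after depolarization. Without the 2 pairs that hold the libraries that stood apart, it was 0.722 points. Rank correlation between libraries over the abundant transcripts had a median of 0.818 for pairs that differ in construct alone, 0.771 for those that differ in state alone and 0.760 for those that differ in replicate alone.

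By the states in the titles, the relation of the construct difference to transcript length had opposite signs in the 2 states. Spearman's rho between length and the log2 construct ratio, across 6288 transcripts, was -7.34e-05, -0.053, -0.025 and -0.116 in resting pairs 1 to 4. After depolarization it was 0.117, 0.144, 0.080 and 0.045. All 4 depolarized values were above all 4 resting values. The change between the states within a replicate was 0.145 ± 0.042 (SD, n = 4) and was positive in 4 of 4 replicates, for which the exact permutation test gave p = 0.13 (two-sided), the smallest possible. With the states that the descriptions name, the replicate 2 values trade places, the 2 states overlap, and the change was 0.046 ± 0.164 (SD, n = 4), positive in 3 of 4 replicates. The pattern thus rests on the states given in the titles. Averaged over both states the correlation was 0.024 ± 0.089 (SD, n = 8 pairs), above 0 in 4 of 8 (exact permutation test, two-sided, p = 0.453, adjusted p = 0.758).

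The lengths at the ends of the range showed how large this was. The 560 transcripts of 8000 nt or more had a median log2 ratio, relative to that of their pair, of -0.025, -0.105, -0.014 and -0.066 at rest and of 0.110, 0.213, 0.030 and 0.080 after depolarization. The 300 transcripts under 1000 nt moved the other way in most pairs, with a change between the states of -0.133 ± 0.102 (SD, n = 4). Depolarized pairs 3 and 4 hold the 2 libraries that stood apart, and pairs 1 and 2, which do not, had the larger values for long transcripts. In the pulldowns of the same lysates the correlation of the construct ratio with length was -0.043 ± 0.053 at rest and 0.160 ± 0.099 after depolarization (SD, n = 4 each). Whether RNA quality or library preparation took part in the length pattern was not tested.

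**Figure D4:**
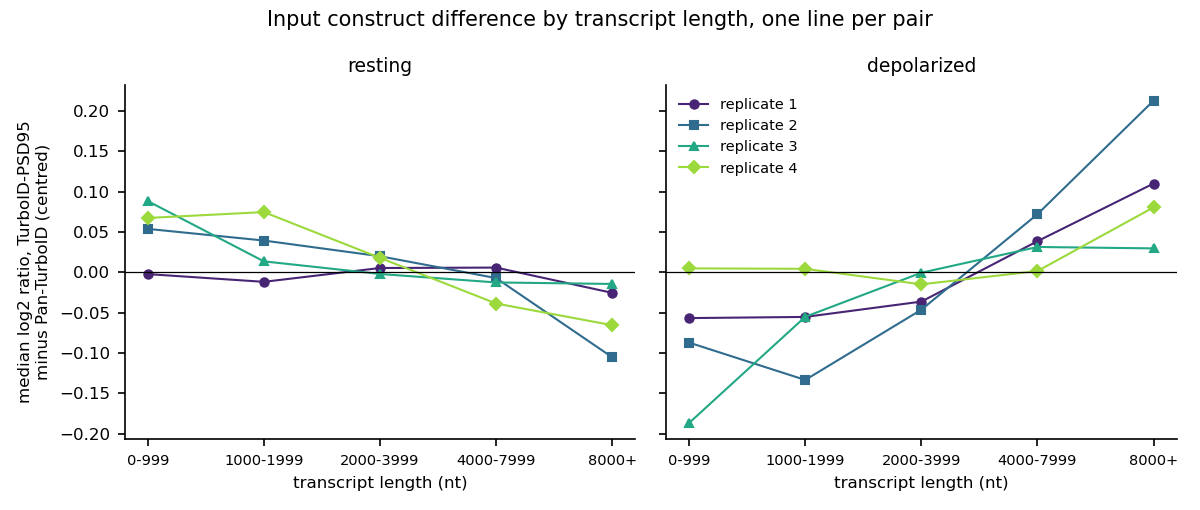
Median log2 construct ratio of input pairs, centred on the median of each pair (vertical axis), in 5 classes of transcript length (horizontal axis), with a line for each replicate, at rest (left) and after depolarization (right) by the states in the titles. Transcripts of 8000 nt or more lie below 0 in all 4 resting pairs and above 0 in all 4 depolarized pairs.

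Because the construct difference was averaged over the states, its change with state was tested for each transcript. The limma fit called 14 of 27887 (0.0502%), 1 higher and 13 lower, with 2604 (9.34%) at an unadjusted p under 0.05. By edgeR's quasi-likelihood test 0 passed, with 1059 at an unadjusted p under 0.05. Leaving out replicate 1, 2, 3 or 4 gave 0, 0, 2 and 6 calls, and using the states named in the descriptions gave 0. In the separate states, the construct difference called 10 transcripts at rest (0.0359%), of which PSD95 was higher for 9. It also called 10 after depolarization (0.0359%), of which PSD95 was lower for 8.

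Of the 3 transcripts named for this change, uc007qbd.1 (1922 nt, shares reads) changed in the same direction in every alternative fit, as did uc007htk.2 where tested. At rest its level was 930, 680, 569 and 869 CPM with PSD95 and 759, 615, 460 and 605 CPM with Pan. After depolarization it was 1031, 905, 803 and 847 CPM with PSD95 and 1313, 1114, 852 and 760 CPM with Pan. PSD95 was higher in 4 of 4 resting pairs and lower in 3 of 4 depolarized pairs, while the groups overlapped in both states. The construct difference was 0.35 ± 0.05 (SE) at rest and -0.34 ± 0.04 after depolarization, a change of -0.68 ± 0.07 with a limma adjusted p of 0.00428. The change ran from -0.72 to -0.48 over 16 alternatives and passed in 8, with an adjusted p from 2.14e-07 to 1. It failed without replicate 1, 2 or 3, at 1, 0.633 and 0.0743, and held without replicate 4 at 0.00837. Averaged over the states, its construct difference was 0.01 ± 0.03.

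For the other two, replicate 1 held the highest levels. For uc029six.1 (325 nt, shares reads), replicate 1 held 2704 CPM with PSD95 and 1681 CPM with Pan at rest, and 1186 and 3168 CPM after depolarization. The other replicates lay between 125 and 1014 CPM in every group. The change was -2.01 ± 0.12 (SE), at a limma adjusted p of 3.06e-05, and without replicate 1 it was 0.09. For uc007htk.2 (4731 nt, shares reads), replicate 1 held 16.5 CPM with PSD95 and 39.4 CPM with Pan at rest and 34.3 and 2.78 CPM after depolarization. No other input library exceeded 0.66 CPM. Its change was 4.46 ± 0.67 (SE), the only one in the higher direction, with a limma adjusted p of 0.0469. It passed in 4 of 15 alternatives, with a change of 0.56 in DESeq2 (adjusted p = 0.989) and 3.10 in edgeR (adjusted p = 1). The call was lost without replicate 2, 3 or 4, at 0.633, 0.162 and 0.114.

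The inputs were finally set beside the pulldowns as their background. Both fractions came from the same lysates and shared no library. The mean construct difference in the pulldowns called 6 of 32553 transcripts (0.0184%), 2 higher and 4 lower, of which uc007jtp.2 and uc009ubo.2 were also among the 5 called in the inputs. Leaving out replicate 1, 2, 3 or 4 gave 1, 2, 0 and 0 calls. Of the others named, uc056ysx.1 (2912 nt) had a pulldown difference of -0.70 ± 0.09 (SE, limma adjusted p = 0.0331) and was lower with PSD95 in 8 of 8 pulldown pairs. That call passed in 0 of 6 alternatives (adjusted p from 0.24 to 1). Its input difference was 0.26 ± 0.22 (limma adjusted p = 0.829), with PSD95 lower in 4 of 4 resting pairs and higher in 4 of 4 depolarized pairs. For uc008gfj.2 (6982 nt) the pulldown difference was 0.18 ± 0.03 (SE, limma adjusted p = 0.0493) and the input difference 0.17 ± 0.07 (limma adjusted p = 0.618). In the pulldowns PSD95 was lower in 4 of 4 resting pairs and higher in 4 of 4 depolarized pairs, and the call passed in 0 of 6 alternatives (adjusted p from 0.304 to 1). A model of all 32 libraries held group and replicate number, and had no term that paired the input and pulldown of a lysate. In it, the construct difference in pulldowns minus that in inputs called 0 of 34696 transcripts in limma. At an unadjusted p under 0.05 there were 2679 (7.72%). By edgeR 1 passed, with 1946 at an unadjusted p under 0.05, and by DESeq2 616 (258 higher).

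The construct differences in inputs and pulldowns were compared across transcripts, within each state and on average. Across all 27167 transcripts tested in both, Pearson's r was 0.01 at rest and 0.04 after depolarization, and across the 2947 of them with whole counts 0.10 in each state. Across the 1020 transcripts with whole counts and a mean input count of at least 200, Pearson's r was 0.42 at rest and 0.34 after depolarization, and Spearman's rho was 0.36 and 0.42. Without the 2 libraries that stood apart, r was 0.43 and 0.41. Averaged over the states, r was 0.06 and rho 0.15, and without those 2 libraries r was 0.15. Across 5267 transcripts that share reads, r was 0.11 at rest, 0.14 after depolarization and -0.02 on average. These are descriptions across transcripts, which are not independent.

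**Figure D5:**
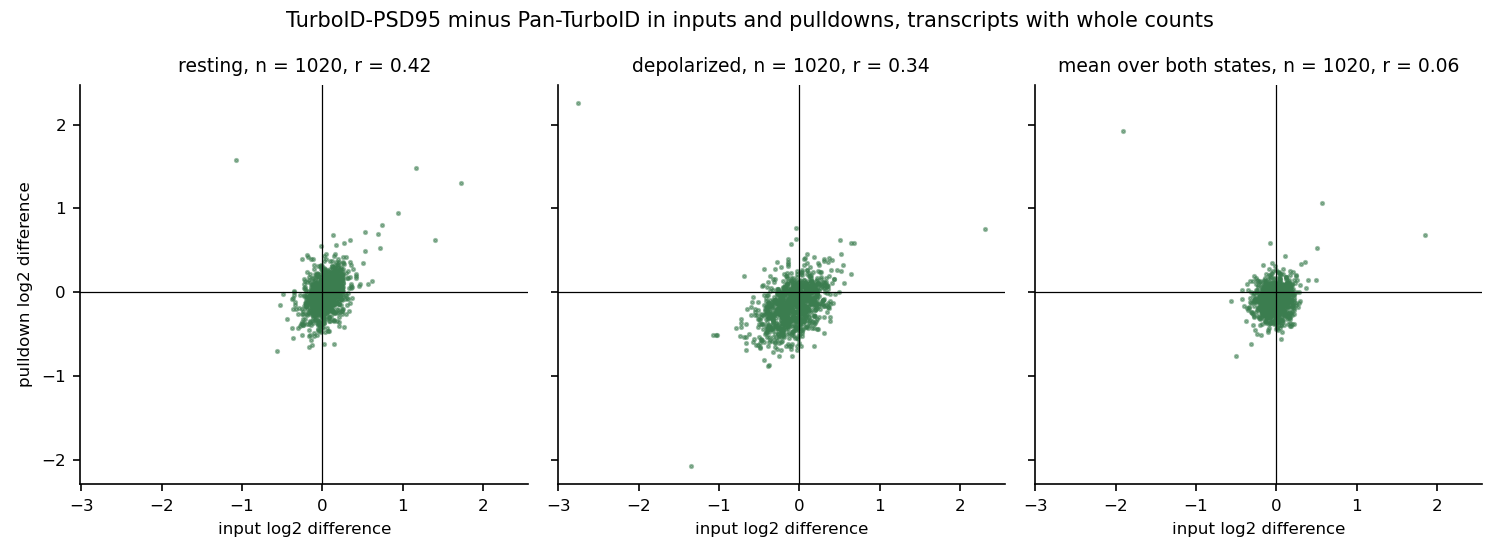
Construct difference (log2 scale) in the inputs (horizontal axis) and in the pulldowns (vertical axis) for 1020 transcripts with whole counts, at rest (left), after depolarization (middle) and averaged over both states (right), with 1 point per transcript. The points are stretched along the rising diagonal in each state, with r of 0.42 and 0.34, and form a round cloud in the average, with r of 0.06.

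By the study's measure of localization, a t-statistic above 1 for PSD95 over Pan, the 2 fractions were compared as lists. At rest, 1377 of 6287 abundant transcripts passed t above 1 in the pulldowns, and 533 of these (38.7%) also passed it in the inputs, where 21.7% of all abundant transcripts did. The shared transcripts were 39.0% of the input list. After depolarization, 922 passed in the pulldowns and 378 of them (41.0%) in the inputs, against 20.1% of all, and they made up 29.9% of the input list. For the mean over both states, 840 passed in the pulldowns and 193 of them (23.0%) in the inputs, against 18.9% of all, and they made up 16.2% of the input list. At rest 6.68% of the pulldown list had a t below -1 in the inputs, against 15.5% of all abundant transcripts. After depolarization these shares were 14.0% and 32.8%. Across all 27167 transcripts tested in both fractions, 27.4% of the resting pulldown list passed t above 1 in the inputs, against 18.6% of all. The corresponding shares were 31.0% and 23.6% after depolarization, and 23.3% and 21.6% for the mean over both states. The study kept the longest transcript of each gene, whereas all tested models were kept here.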

How the data were processed

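RNA-seq libraries of inputs and pulldowns were grouped by their titles. The authors quantified reads with salmon against mm10 UCSC knownGene transcripts (version not given in the sources used here), and DESeq and limma stand in the submitters' processing notes as well. The deposited files hold, for each transcript, expected counts and TPM, which the authors' tool scaled per library. Expected counts were rounded and tested, and TPM was used only for a mean transcript length per library. CPM is scaled to 1000000 of the TMM-adjusted library size. Because reads are split among overlapping models, levels of transcripts that share reads depend on that split.

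The members and lists were chosen with earlier results of these data known. The main test was limma 3.58.1 (voomWithQualityWeights) with TMM factors and filterByExpr of edgeR 4.0.16, in R 4.3.3, with group and replicate number as terms, as in the study's methods, and Benjamini-Hochberg adjustment at 0.05. Quality weights of the inputs ran from 0.349 to 2.24, the highest for depolarized Pan replicate 4, 1 of the 2 libraries that stood apart. Samples of a replicate were processed together, per the study's methods. Residuals of input libraries with the same number correlated with r from 0.064 to 0.344 (mean 0.176, 24 pairs), and those with different numbers with a mean of -0.056. No 2 input files were identical. The limma p-values and 95% intervals come from a weighted fit and can understate the spread between pairs. For uc033jng.1 the SE was 0.24, while its 8 pair differences in the inputs ran from -5.04 to 1.93. Library measures used exact sign-flip tests over pairs with a prior count of 2. Alternatives were DESeq2 1.42.0, the quasi-likelihood test of edgeR, RLE factors, no quality weights, other filters, no block, pair blocks, whole counts only, all 32 libraries and leaving out replicates. Named transcripts were at most 2 per direction and comparison, with the smallest p among those called whose mean log2 CPM reached 1 and whose difference reached 0.5, or those called where fewer than 3 were, and the 3 most abundant. The tests of the mean construct difference in inputs, its change with state and the pulldown minus input difference were run on simulated counts. The sign-flip test was run on simulated normal values, and the other contrasts were not simulated. Figures were drawn with matplotlib in Python.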

Additional observations from a re-analysis of the deposited data

Results flagged for a closer look

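Among 51 groups of 4 input libraries, 7 held a library far from the other 3 by Dixon's criterion (a gap over 0.829 of the range). For independent, normally distributed values chance flags about 1 in 20 groups. The groups here are CPM of transcripts selected from these same libraries, so that rate does not apply to them. For uc033jng.1 the flagged libraries were resting Pan replicate 3, at 35722 CPM, and depolarized PSD95 replicate 3, at 254127 CPM. For uc007htk.2 they were replicate 1 of all 4 groups, at 39.4 CPM in resting Pan, 16.5 in resting PSD95, 2.78 in depolarized Pan and 34.3 in depolarized PSD95. For uc029six.1 it was depolarized Pan replicate 1, at 3168 CPM.

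The construct difference of 3 named transcripts differed between the resting and the depolarized state by limma's test of the change itself. The change was 4.46 for uc007htk.2 (adjusted p = 0.0469, passed in 4 of 15 alternatives), -2.01 for uc029six.1 (adjusted p = 3.06e-05, 8 of 16) and -0.68 for uc007qbd.1 (adjusted p = 0.00428, 8 of 16). PSD95 was higher than Pan for uc007qbd.1 in 4 of 4 resting pairs and lower in 3 of 4 depolarized pairs.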

How the results depend on the processing

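The number of transcripts called for the mean construct difference in inputs, 5 in limma, was 0 with edgeR, 499 with DESeq2 (325 higher), 3 without quality weights, 84 without a filter (17 higher), 3 at a mean CPM of at least 5, 0 without the replicate block, 2 with the states of the descriptions, 8 among transcripts with whole counts (7 higher), 2 without depolarized Pan replicate 4 and 1 to 4 without a replicate. With RLE factors it was 4, 2 higher and 2 lower, against 3 and 2. The 14 called for the change with state became 0 with edgeR, 563 with DESeq2, 39 with RLE, 58 without weights, 314 without a filter, 1 at the CPM minimum, 0 without the block, 0 with the descriptions' states, 7 with pair blocks, 0 with whole counts, 4 without the 2 libraries that stood apart, 0 to 6 without a replicate and 16 without depolarized Pan replicate 4. The 0 called for pulldowns minus inputs became 1 with edgeR, 616 with DESeq2, 3 with RLE, 9 without a filter and 0 to 1 without a replicate. The 6 called in pulldowns became 1 with edgeR, 1 without the block and 0 to 2 without a replicate. The median change with state over all transcripts, 0.05, lay between -0.05 and 0.14 across these fits. Causes were not tested.

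Signs reversed for uc009iup.1 without the replicate block (-0.50), uc033jng.1 without replicate 4 or without depolarized Pan replicate 4 (-2.69 to 0.55 over these and the other replicates left out), uc029six.1 without a filter (0.44) or replicate 1 (-2.02 to 0.089 over replicates) and, in pulldowns, uc008gfj.2 without replicate 1 (-0.073 to 0.21 over replicates). The library measures did not pass over the 8 pairs, and settings with 4 pairs could not pass. Reversals were the log2 total count without replicate 4 (-0.15 to 0.20 over replicates) or without the 2 pairs of the libraries that stood apart (-0.0039), the share of the 3 most abundant without replicate 4 (-11.7 to 5.89 points) or those pairs (0.722 points), log2 counts outside them without replicate 4 (-0.39 to 0.63), mean length without replicate 1 (-7.86 to 197 nt), the short class at a mean count of 1000 (0.013) or without those pairs (0.011) and the long class with whole counts (-0.0097). The lower SD of construct than of state pairs kept its direction in all 9 alternatives, with differences from -0.134 to -0.017. Because all 4 replicates were below 0, the alternatives that leave out a replicate could not reverse it. At a prior count of 0.5 the difference was -0.017, and 1 of 4 replicates was above 0 (exact permutation test, two-sided, p = 0.625). Averaging both states of a replicate as a replicate block (n = 4) leaves every mean unchanged, so no library measure could reverse there. No value could be given for uc007htk.2 without replicate 1, where it was not tested, nor for transcripts that share reads in the fit to whole counts.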
